A study of Mus musculus with 4 samples.

Results

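Cxcl1, Cxcl2, Cxcl5 and Cxcl15 encode chemokines of the CXC family that attract neutrophils, and Cxcr2 encodes a neutrophil receptor for such chemokines. These 5 genes were chosen by name as a group of neutrophil recruitment. Every probe set to which the platform annotation gave 1 of their symbols and no other was taken, which gave 8 of the 34958 probe sets with a single symbol, or 5 of 18194 genes. Cxcl1 had 3 probe sets, Cxcl15 had 2, and Cxcl2, Cxcl5 and Cxcr2 had 1 each.

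The arrays measured AEC2, the type II epithelial cells that line the alveoli and make surfactant, which had been isolated from mouse lungs with a cell sorter. The 4 groups were TLR4-/- mice at day 4 after bleomycin, wild-type mice at day 4 after bleomycin, untreated TLR4-/- mice and untreated wild-type mice, with 1 array each. Bleomycin is a drug that injures the lung epithelium, and TLR4 is a receptor of innate immunity. Per the labels, each array held RNA of cells pooled from 4 to 5 mice. The pooling leaves no spread between mice, and the sources used here do not give the knockout allele or the age of the mice.

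In CXC chemokines the first 2 cysteines of the mature protein are separated by 1 residue. The members with a glutamate-leucine-arginine motif before those cysteines attract neutrophils through CXCR2. Airway and alveolar epithelium, macrophages and stromal cells transcribe such genes after signals from TLR4, IL-1 or TNF reach the transcription factor NF-kB. Their mRNAs are short-lived, which lets the level fall soon after a stimulus ends.

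The 4 chemokine genes lie in a single cluster. In GRCm38.p6 it runs on chromosome 5 from 90759298 to 90905938, a span of 146.6 kb that holds 7 annotated genes, all protein coding. Cxcl5 stands at 90759298 to 90761625, followed by Ppbp, Pf4, Cxcl3, Cxcl15 (90794534 to 90803067), Cxcl1 (90891245 to 90893121) and Cxcl2 (90903899 to 90905938). Cxcl1 and Cxcl2 are neighbours, 10.8 kb apart. The receptor gene Cxcr2 is on chromosome 1, from 74153994 to 74161246.

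The promoters of Cxcl1 and Cxcl2 are printed because these genes shared their highest array, with Cxcl3 and Cxcl15 of the same cluster for comparison. RefSeq promoter windows were found for 4 of the 5 genes, all but Cxcl5. Each line gives the 100 bases before the annotated start on the plus strand of GRCm38.p6, and capitals mark the bases covered by the NF-kB consensus motif on either strand.
Cxcl1, chr5:90891145-90891244: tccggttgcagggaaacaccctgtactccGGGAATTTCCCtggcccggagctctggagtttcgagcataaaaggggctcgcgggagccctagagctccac
Cxcl2, chr5:90903799-90903898: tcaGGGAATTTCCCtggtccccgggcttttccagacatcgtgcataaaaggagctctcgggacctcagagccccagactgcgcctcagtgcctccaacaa
Cxcl3, chr5:90786001-90786100: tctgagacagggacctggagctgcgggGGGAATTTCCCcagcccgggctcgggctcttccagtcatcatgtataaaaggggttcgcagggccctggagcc
Cxcl15, chr5:90794434-90794533: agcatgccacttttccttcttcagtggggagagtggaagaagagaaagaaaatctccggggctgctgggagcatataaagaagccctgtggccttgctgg

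Cxcl1, Cxcl2 and Cxcl3 each held the same 11 bases, GGGAATTTCCC, in which a match on the plus strand and a match on the minus strand overlap. The run began 71 bases before the start of Cxcl1, 97 before Cxcl2 and 73 before Cxcl3. It occurred in 14 of the 32851 promoter windows of 250 bases before to 50 after a start, or 0.0426%. The NF-kB consensus motif was present in 4.51% of these windows, and in 1.5% of the 100-base stretches before the start. Between Cxcl1 and Cxcl2 the longest shared run was 14 bases long, GGGAATTTCCCTGG, and 2 promoter windows held it, theirs. Both runs were first read from these promoters and then counted over all windows, these included. Their low counts are therefore no test. No match was found in the windows of Cxcl15 and Cxcr2, which says only that these letters are not there. Such matches are descriptions of sequence and show no binding.

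**Figure D1:**
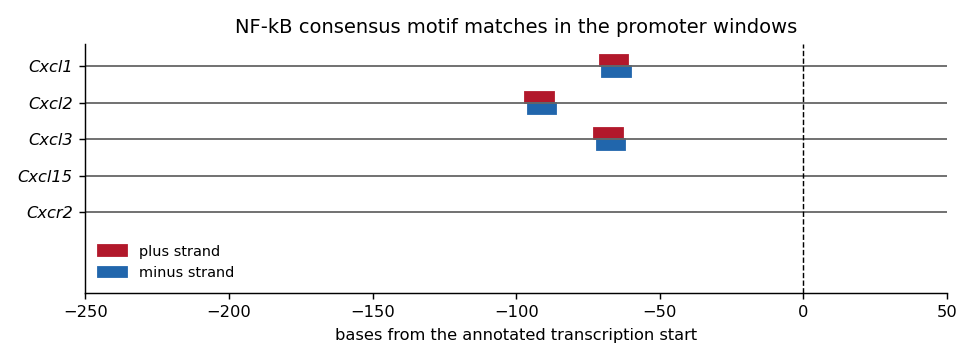
Matches to the NF-kB consensus motif in the promoter windows of 4 members or cluster neighbours and of the receptor gene, by distance in bases from the annotated start (dashed line). Red boxes above a line are matches on the plus strand and blue boxes below it on the minus strand; Cxcl1, Cxcl2 and Cxcl3 have an overlapping pair each, and Cxcl15 and Cxcr2 have none.

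The values are log2 signals per probe set, read as log2 from their range, so a difference of 1 is a 2-fold difference. With 1 array per group a difference between groups has no test. A scale for it came from a limma model with treatment and genotype over all 9097 genes past a filter on dim genes (mean log2 signal above 7.05). Its prior variance gave a standard deviation of 0.23 for a difference between 2 arrays, called the spread between arrays below. It rests on how far the genotypes' responses differed in typical genes, not on repeated pools. With 1 residual degree of freedom that variance is poorly determined. On simulated arrays most runs of the fit gave more false calls than its threshold allows, so its adjusted p-values may be too small. Those arrays held no difference between the genotypes' responses. In the measured arrays such a difference counts as error, so the simulation cannot say how far p is off for a given gene. False calls were not counted by size of p, and calls close to 0.05 have the least margin. Genes with several probe sets were averaged. Cxcl1, Cxcl2 and Cxcl15 passed the filter, and Cxcl5 and Cxcr2 did not. The array medians lay between 6.93 and 6.98. The defining AEC2 markers were bright on every array, with Sftpc at 14.02 to 14.06 and Sftpb at 13.94 to 13.99. The targeted gene Tlr4 had 4 probe sets. In 1 of them the TLR4-/- arrays were lower, by a log2 difference of -2.68 at day 4 and -1.63 untreated. Another 2 were higher in TLR4-/- by 0.41 to 0.66, and the last was dim. The labels do not say which of them lie in the deleted part.

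Cxcl1 was highest in the wild-type day 4 array and lay close together in the other 3. Its protein, also called KC, is a main neutrophil attractant of the mouse. Averaged over its probe sets, the log2 signal was 9.84 in TLR4-/- day 4, 10.86 in wild-type day 4, 10.05 in TLR4-/- untreated and 10.07 in wild-type untreated. After bleomycin it differed by -0.21 in TLR4-/- and by 0.79 in wild type. The first lies within the spread between arrays and the second is well beyond it. At day 4 the TLR4-/- array was 2.03-fold lower than wild type (a log2 difference of -1.02), and in untreated mice the genotypes differed by -0.01. Of the 9097 genes, 4 had a lower genotype difference at day 4 than Cxcl1.

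The 3 probe sets of Cxcl1 shared their highest and their lowest array. The probe set 1419209_at read 8.98 in TLR4-/- day 4, 10.03 in wild-type day 4, 9.26 in TLR4-/- untreated and 9.16 in wild-type untreated. The probe set 1441855_x_at read 9.91, 10.92, 10.09 and 10.12 in the same order of groups, and 1457644_s_at read 10.64, 11.63, 10.81 and 10.92. In each of them the wild-type day 4 array was highest and the TLR4-/- day 4 array lowest. The genotype difference at day 4 was -1.06, -1.01 and -0.98, so the brightest probe set stayed just under 2-fold. The suffixes _x_at and _s_at mark probe sets whose probes can also match other transcripts. The largest difference came from the probe set that carries neither suffix.

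Cxcl2, whose protein is also called MIP-2, had the same highest array. Its log2 signal was 9.87 in TLR4-/- day 4, 10.54 in wild-type day 4, 9.79 in TLR4-/- untreated and 9.94 in wild-type untreated. After bleomycin it differed by 0.08 in TLR4-/- and by 0.60 in wild type, a 1.52-fold difference beyond the spread between arrays. At day 4 the TLR4-/- array was 1.59-fold lower than wild type, a log2 difference of -0.67, and 25 of 9097 genes had a lower one. The untreated arrays differed by -0.15, within the spread.

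Cxcl5 encodes a neutrophil chemokine that AEC2 of the mouse release after inhaled lipopolysaccharide. Its signal was dim on every array, at 4.41 in TLR4-/- day 4, 4.45 in wild-type day 4, 4.40 in TLR4-/- untreated and 4.25 in wild-type untreated. All 4 values lay within 0.20, less than the spread between arrays. Without detection calls, a dim signal of this kind cannot be told from background, so nothing can be said of a change in Cxcl5.

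Cxcl15, or lungkine, is a chemokine gene of the mouse lung epithelium. The probe set 1421404_at read 13.53 in TLR4-/- day 4, 13.77 in wild-type day 4, 13.70 in TLR4-/- untreated and 13.74 in wild-type untreated. The other, 1456428_at, stayed between 13.89 and 13.92 on the 4 arrays. The average differed after bleomycin by -0.08 in TLR4-/- and by 0.01 in wild type, and at day 4 by -0.10 between the genotypes. None of these exceeds the spread between arrays. Its probe sets disagreed at day 4, where 1421404_at differed by -0.24, just past the spread, and 1456428_at by 0.03. The highest signal on any array was 14.55, so both probe sets were close to the upper end of the signals measured.

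Cxcr2, the receptor gene, was also dim. Its log2 signal was 4.76 in TLR4-/- day 4, 5.02 in wild-type day 4, 4.98 in TLR4-/- untreated and 4.86 in wild-type untreated. The wild-type day 4 array was again the highest, but the 4 values spanned only 0.26. The genotype difference at day 4, -0.26, is just over the spread between arrays, in a signal that may be background.

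**Figure D2:**
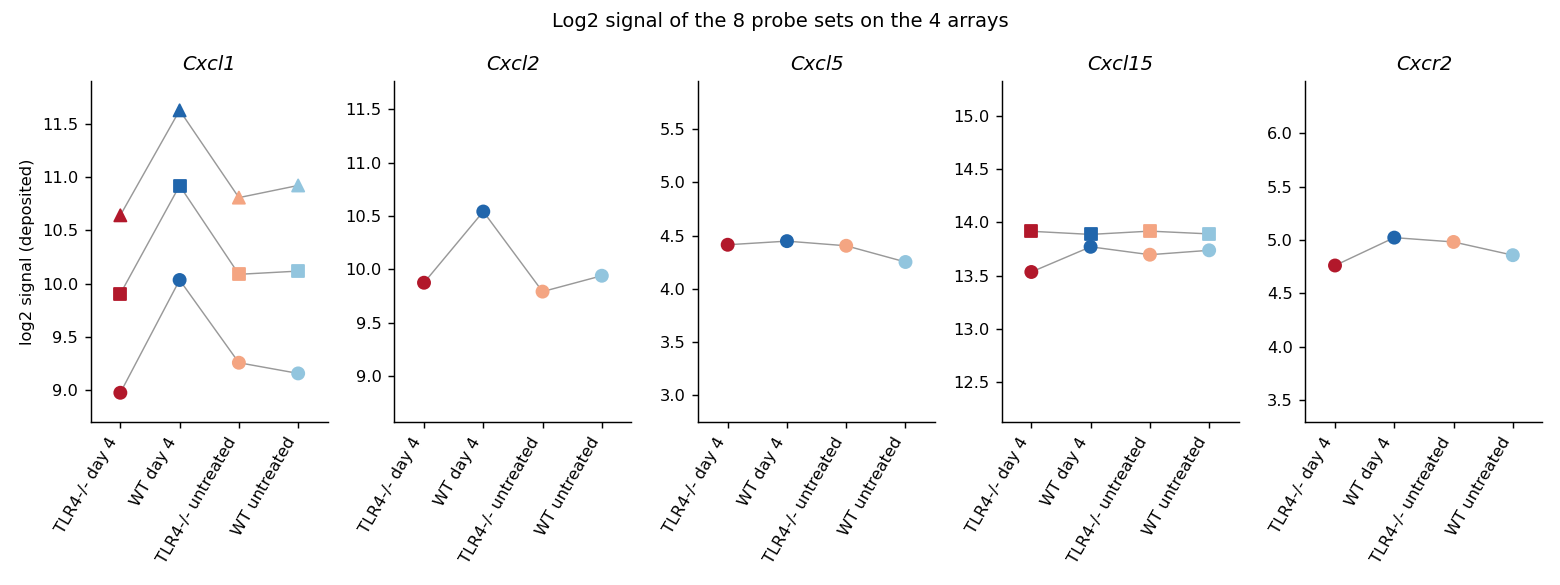
Log2 signal of each probe set of the 5 genes on the 4 arrays, with marker shapes for different probe sets of a gene and grey lines joining the values of a probe set; each panel spans the same range of log2 units. Cxcl1 and Cxcl2 are highest in wild type at day 4, while Cxcl5, Cxcl15 and Cxcr2 stay within 0.26.

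Counts over the genes set these differences in context. After bleomycin in wild type, 2 of the 3 members past the filter were higher by more than the spread between arrays, as were 30.4% of all genes, and none reached 2-fold (0 of 3, against 2.55% of all genes higher by 2-fold). In TLR4-/- no member past the filter was higher by more than the spread (0 of 3), against 26.7% of all genes. At day 4, 2 of 3 were lower in TLR4-/- by more than the spread, against 11.6% of all genes, and Cxcl1 was among the 0.055% of genes lower by 2-fold. In the untreated arrays none of the 3 differed by more than the spread, where 29.3% of all genes were higher and 12.6% lower in TLR4-/-. The responses of the genotypes (TLR4-/- minus wild type) differed by -1.00 for Cxcl1, -0.52 for Cxcl2 and -0.10 for Cxcl15. A value of -1 or lower was found in 0.846% of all genes, and Cxcl1 reached it narrowly: it was -0.87 with its brightest probe set and -0.93 after quantile normalization or with the difference centred. Below Cxcl2 lay 805 of 9097 genes. The comparisons share arrays: the wild-type day 4 array alone enters the high value of both the bleomycin and the genotype difference, so these are not separate observations.

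**Figure D3:**
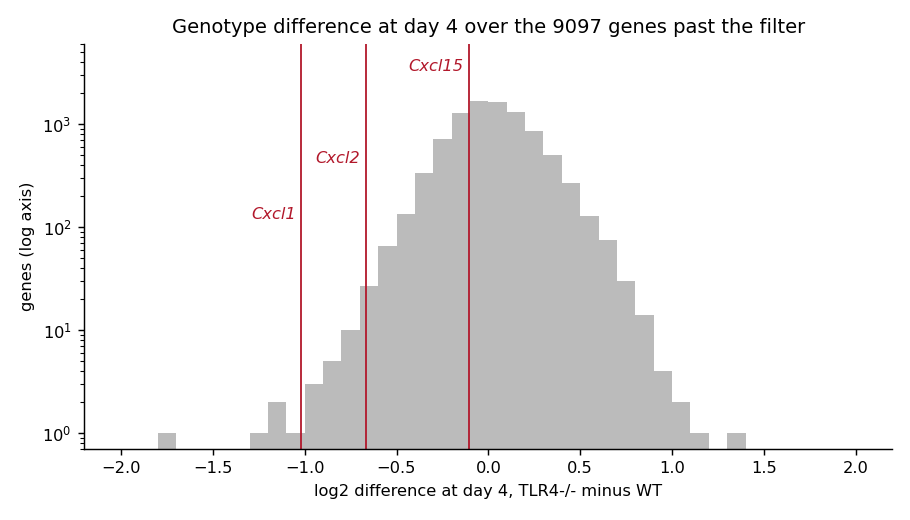
Number of genes (log axis) by log2 difference at day 4, TLR4-/- minus wild type, over the 9097 genes past the filter, in steps of 0.1. Red lines mark Cxcl1 at -1.02 and Cxcl2 at -0.67 in the lower tail and Cxcl15 at -0.10 near the centre.

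The model over both genotypes called no member. For bleomycin, Cxcl1 averaged 10.35 in bleomycin arrays and 10.06 in untreated arrays, a difference of 0.29 ± 0.21 (SE, limma, 2 arrays each, higher in 1 of 2 genotypes, adjusted p = 0.448). Cxcl2 differed by 0.34 ± 0.17 (limma adjusted p = 0.251, higher in 2 of 2 genotypes) and Cxcl15 by -0.03 ± 0.16 (limma adjusted p = 0.932). Among all genes 7.18% rose and 2.53% fell in this fit. Fits that left out an array held treatment alone, without genotype, so the model changed along with the array. The 653 genes that rose became 0 without the TLR4-/- day 4 array, 18 without the wild-type day 4 array and 375 without the wild-type untreated array. For genotype, limma gave -0.52 ± 0.21 for Cxcl1 (adjusted p = 0.479, with -1.02 at day 4 and -0.01 untreated, which was 0.03 with arrays centred and 0.10 in the probe set 1419209_at), -0.41 ± 0.17 for Cxcl2 (adjusted p = 0.497, lower in 2 of 2 treatments) and -0.06 ± 0.16 for Cxcl15 (adjusted p = 0.957). No gene passed for genotype (0.0% of genes in either direction), and 822 genes (9.04%), Cxcl1 and Cxcl2 among them, had an unadjusted limma p under 0.05. Its single residual degree of freedom is the interaction of genotype and treatment, which therefore has no test. Without the wild-type day 4 array, in a fit with treatment alone, the bleomycin value of Cxcl1 was -0.22 and that of Cxcl2 was 0.01.

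The gene closest to Cxcl1 in pattern was Cxcl2. Likeness was the Euclidean distance over the 4 arrays between values centred on each gene's own mean, and Cxcl2 lay at 0.27 log2 units. Next came Glyr1, a nuclear protein that binds chromatin, at 0.31, and Tnfaip3, which encodes the NF-kB inhibitor A20, at 0.34. Tnfaip3 read 7.71 in TLR4-/- day 4, 8.37 in wild-type day 4, 8.01 in TLR4-/- untreated and 7.83 in wild-type untreated. Cxcl15 ranked 1606th by this distance among the genes so ranked.

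Cxcl3, a neutrophil chemokine gene of the cluster that also holds the 11-base run, had another pattern over the arrays. It read 6.62 in TLR4-/- day 4, 6.77 in wild-type day 4, 4.88 in TLR4-/- untreated and 4.88 in wild-type untreated. Both day 4 arrays stood above both untreated ones, by 1.74 in TLR4-/- and 1.89 in wild type. Its mean was below the filter. In the fit without it, limma gave 1.82 ± 0.13 (adjusted p = 0.0142, higher in 2 of 2 genotypes), a fold over a dim untreated signal whose size is uncertain. Ppbp, the platelet chemokine of the cluster, was dim throughout, at 3.76 to 4.29.

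The CXC chemokines without the neutrophil motif draw mainly lymphocytes and other mononuclear cells. Of 9 on the array 5 passed the filter, 2 rose after bleomycin and 0 fell, against 7.18% and 2.53% of all genes, with a median of 0.59 against 0.04. Cxcl10, induced by interferon, read 8.36 in TLR4-/- day 4, 8.43 in wild-type day 4, 7.36 in TLR4-/- untreated and 6.83 in wild-type untreated, and rose by 1.30 ± 0.18 (limma adjusted p = 0.00058, higher in 2 of 2 genotypes). Cxcl13, an attractant of B cells, rose by 1.14 ± 0.19 (limma adjusted p = 0.00264). Pf4, a platelet gene, and Cxcl16 and Cxcl17, which lung epithelium expresses, differed by 0.59, 0.38 and 0.26 without passing. Cxcl9, Cxcl11, Cxcl12 and Cxcl14 were below the filter, and of these Cxcl14 had the largest genotype difference at day 4, -0.36. At day 4 the genotypes differed by -0.08 for Cxcl10 and -0.15 for Cxcl13. Of the other CXC and atypical receptors, 8 were on the array and 2 passed the filter. Cxcr4, the receptor of Cxcl12, rose by 0.56 ± 0.16 (limma adjusted p = 0.0391), and the scavenging receptor gene Ackr4 differed by 0.05. The dim receptor genes Cxcr3, Cxcr5, Ackr1 and Ackr3 differed between the genotypes at day 4 by -0.27, 0.26, -0.20 and 0.18.

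Of the cytokines and receptors upstream of the chemokine genes, 16 were on the array and 11 passed the filter. Of these 11, 3 rose after bleomycin and 0 fell, against 7.18% and 2.53% of all genes, with a median of 0.07 against 0.04. Il1b read 10.18 in TLR4-/- day 4, 10.50 in wild-type day 4, 8.97 in TLR4-/- untreated and 9.22 in wild-type untreated, and rose by 1.24 ± 0.16 (limma adjusted p = 0.000301). Tlr2, a receptor of bacterial lipoproteins, rose by 1.18 ± 0.16, and Irak1, a kinase of TLR and IL-1 signalling, by 0.62 ± 0.16 (limma adjusted p of 0.000666 and 0.0289). Il1b was thus higher in both genotypes, by 1.20 in TLR4-/- and 1.28 in wild type. Tnf, which was below the filter, had 6.57 in TLR4-/- day 4, 7.33 in wild-type day 4, 7.20 in TLR4-/- untreated and 6.89 in wild-type untreated, so its highest and lowest arrays were those of Cxcl1. The adaptor gene Myd88 differed after bleomycin by 0.02 in TLR4-/- and by 0.59 in wild type, and did not pass. At day 4 the TNF receptor gene Tnfrsf1a differed between the genotypes by 0.34 and the ubiquitin ligase gene Traf6 by -0.34. Il17ra, Il17rc and Traf3ip2 of IL-17 signalling differed after bleomycin by 0.03, -0.10 and 0.02 in the fit over both genotypes.

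No NF-kB or C/EBP regulator was called (0 of 13 past the filter). For bleomycin 7.18% of all genes rose and 2.53% fell, so 0 of 13 lies near these shares. The responses differed towards a lower value in TLR4-/- for 11 of the 13, with a median of -0.24 against -0.07 over all genes, of which 59.2% lay below 0. Nfkbia, which encodes the NF-kB inhibitor IkB-alpha, read 10.82 in TLR4-/- day 4, 11.48 in wild-type day 4, 11.05 in TLR4-/- untreated and 11.18 in wild-type untreated. Its genotype difference at day 4 was -0.66, as was that of Tnfaip3, and that of Nfkbiz, an NF-kB cofactor, was -0.62. In untreated arrays Nfkbia differed by -0.13, Tnfaip3 by 0.18 and Nfkbiz by -0.40. The responses of the genotypes thus differed by -0.53, -0.84 and -0.22 in the same order of genes. The subunit gene Rela differed the other way at day 4, by 0.34. Bcl3, an atypical IkB protein gene, was higher in TLR4-/- by 0.43 at day 4 and by 1.40 when untreated, and Cebpd by 0.83 when untreated.

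Factors that stabilise or degrade chemokine mRNAs showed no calls (0 of 9). That is near the shares of all genes for bleomycin, where 7.18% rose and 2.53% fell. Their median for bleomycin was 0.00, against 0.04 over all genes. Zfp36, a decay factor, read 12.89 in TLR4-/- day 4, 13.11 in wild-type day 4, 12.93 in TLR4-/- untreated and 13.04 in wild-type untreated. Zc3h12a, a nuclease, ranged from 6.97 to 7.34. The largest genotype differences of this list at day 4 were -0.27 for Zfp36l1, 0.25 for Khsrp, -0.23 for Zfp36 and 0.21 for Arid5a.

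Of the epithelial genes often induced together with neutrophil chemokines, 10 were on the array and 7 passed the filter. Of these 7, 4 rose and 0 fell, against 7.18% and 2.53% of all genes. Their median was 0.63, against 0.04 over all genes. The cytokine gene Lif rose by 1.43 ± 0.16, the acute phase gene Saa3 by 0.99 ± 0.28, the monocyte chemokine gene Ccl2 by 0.92 ± 0.16 and the lipocalin gene Lcn2 by 0.63 ± 0.15 (limma adjusted p of 0.000106, 0.0411, 0.00348 and 0.0246). Saa3 was uneven, at 8.56 in TLR4-/- day 4, 8.50 in wild-type day 4, 8.37 in TLR4-/- untreated and 6.69 in wild-type untreated. Csf3, the neutrophil growth factor gene, was below the filter and read 5.59, 6.07, 5.62 and 5.57 in that order of groups, with the wild-type day 4 array highest. Il6, also below it, read 6.90, 7.84, 5.53 and 5.79. Ccl20, which attracts dendritic and T cells, and the metalloreductase gene Steap4 differed between the genotypes at day 4 by 0.44 and -0.37. Across these lists limma called 10 genes for bleomycin. None was called without the TLR4-/- day 4 array or without the wild-type day 4 array (0 of 10 each), 6 were called without the wild-type untreated array, and Cxcl10, Il1b and Ccl2 passed under each alternative that used all 4 arrays.

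**Figure D4:**
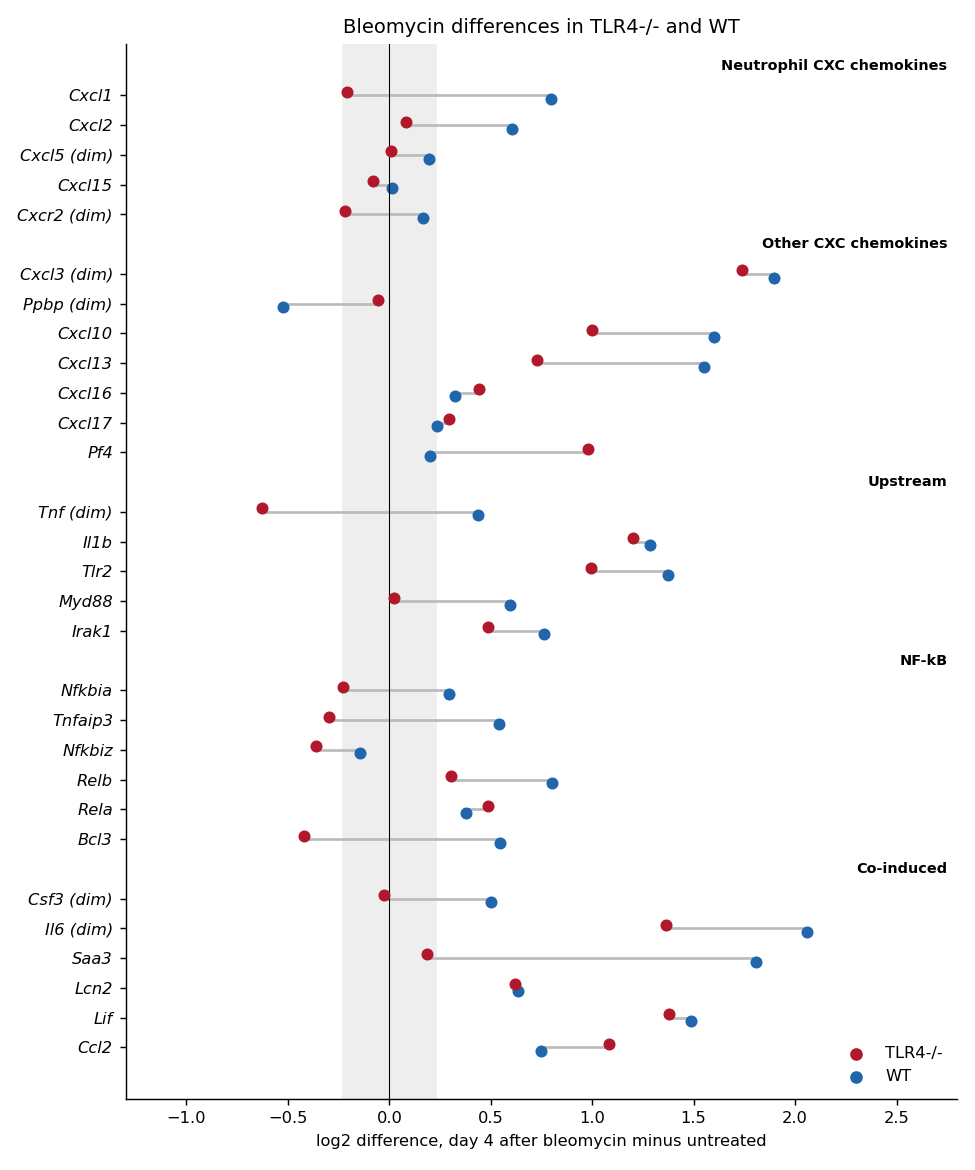
Log2 difference between day 4 after bleomycin and untreated in TLR4-/- (red) and wild type (blue) for the 5 genes and for genes of the lists, the latter picked after their values were seen. The grey band is the spread between arrays of 0.23 either way and "dim" marks genes below the filter; Cxcl1 and Cxcl2 lie outside the band in wild type and inside it in TLR4-/-, while Cxcl3, Il1b and Cxcl10 lie outside it in both.

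Markers of other cells moved beside these values, and their part in them was not tested. Leukocyte and macrophage markers rose in 10 of 11 members past the filter and 0 fell, against 7.18% and 2.53% of all genes. The 14 on the array had a summed linear signal of 7280 in TLR4-/- day 4 and 6060 in wild-type day 4. Untreated, it was 2500 in TLR4-/- and 2670 in wild type. That sum was higher in TLR4-/- than in wild type at day 4, though not for every gene. Of the 11 past the filter, 9 were higher and 2 lower in TLR4-/- at day 4. Neutrophil markers, of which 13 were on the array and 4 passed the filter, summed to 3990 in TLR4-/- day 4 and 5410 in wild-type day 4. Untreated, they summed to 3390 in TLR4-/- and 4660 in wild type. Past the filter 2 of 4, Ltf and Il1r2, rose and 0 fell, against 7.18% and 2.53% of all genes. For all 4 that passed the filter the TLR4-/- array read below the wild-type array at day 4 and also in untreated mice. Fpr2, just below the filter, was higher in TLR4-/-, by 0.28 at day 4 and 0.15 untreated. Mmp9, also below it, was higher by 0.05 at day 4. The other neutrophil markers below the filter were lower at day 4, from -0.01 for Trem1 to -0.34 for Elane. Csf3r among them differed by -0.30 at day 4 and -0.23 untreated. S100a8 and S100a9 were the brightest of the neutrophil markers on every array, so they weigh most in the sum. S100a9, a calprotectin subunit gene abundant in neutrophils, read 10.46 in TLR4-/- day 4, 11.26 in wild-type day 4, 10.48 in TLR4-/- untreated and 11.09 in wild-type untreated. The neutrophil granule genes Mpo and Elane were dim on every array, at 4.89 to 5.20 and 4.29 to 4.78. Club and secretory airway markers summed to 23800, 24400, 17100 and 30700 in that order of groups, mesothelial markers to 1460, 1820, 415 and 967, fibroblast markers to 1520, 1770, 718 and 948, and endothelial markers to 654, 547, 650 and 697. Past the filter, 1 of 10 airway markers (Reg3g), 3 of 3 mesothelial markers and 1 of 3 fibroblast markers (Col1a1) rose. In these lists 0 fell, against 7.18% of all genes that rose and 2.53% that fell. The 1 endothelial marker past the filter did not pass the test. Of 19 marker calls, 0 were left without the TLR4-/- day 4 array and 5 without the wild-type day 4 array. AEC2 markers summed to 116000, 126000, 131000 and 132000. Of 15, 2 fell (Hc and Lgi3) and 0 rose, against 2.53% and 7.18% of all genes. At day 4, 14 of the 15 were lower in TLR4-/- and 1 was higher, with a median of -0.13 against 0.02 over all genes. Untreated, 8 were lower and 7 higher. In such sorted pools, fewer cells of a type and less RNA per cell cannot be told apart.

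**Figure D5:**
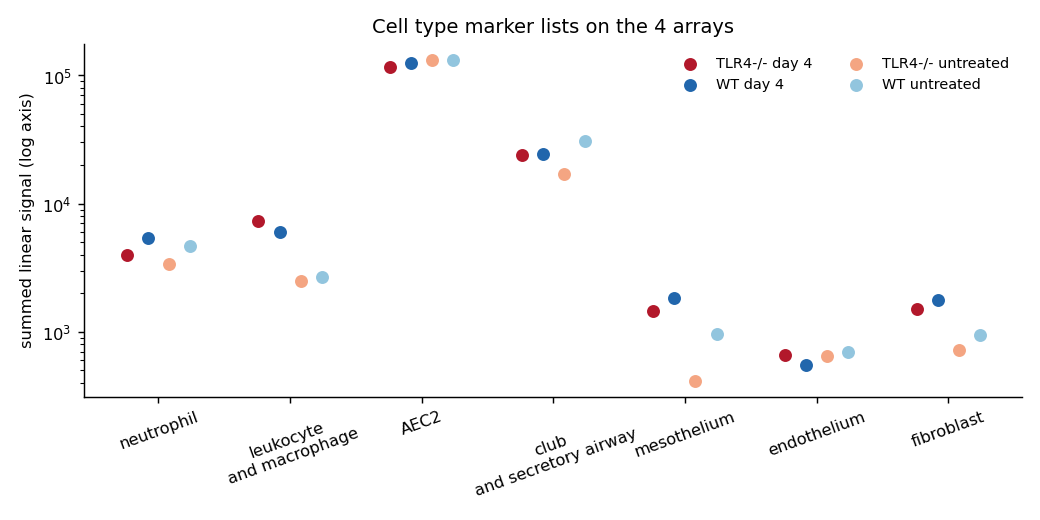
Summed linear signal (log axis) of the genes of each marker list on the array, with 1 point per array in the order TLR4-/- day 4, wild-type day 4, TLR4-/- untreated and wild-type untreated. Leukocyte and macrophage markers are higher in both day 4 arrays, at 7280 and 6060 against 2500 and 2670, and AEC2 markers stay within 116000 to 132000.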

How the data were processed

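The deposited table holds 1 value per probe set and array (45101 probe sets, 4 arrays), read as log2 signals from their range and similar quantiles. Per the labels' protocols, the RNA went through cDNA amplification and biotin labelling by kit. The sources used here do not give the authors' software or normalization, and no detection calls were used. Of the probe sets 34958 had 1 symbol, 932 several and 9211 none. Symbols were updated by Entrez identifier through RefSeq (34754 matched). Probe sets were averaged per gene (18194 genes) and 9097 genes with a mean above the median were kept. Differences between single arrays were not tested. Bleomycin and genotype effects were fitted with limma 3.58.1 in R 4.3.3 (lmFit, eBayes, additive model, 1 residual degree of freedom, Benjamini-Hochberg, 0.05). Tested on simulated data with known changes that both genotypes shared, the fit recovered most of them. It made more false calls than its threshold allows in most runs. Each group is 1 pool, so the p-values rest on how far the genotypes' responses differed, not on repeated pools. The number of arrays limits the precision.

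The 5 genes, the lists and the alternatives were chosen with earlier results of these data known. All members of the group, of the list of other neutrophil chemokines and of the list of CXC chemokines without the neutrophil motif were named. Of the other lists up to 6 called genes and up to 4 with the largest genotype difference at day 4 were named. Genes outside this rule (Sftpb, Sftpc, S100a8, S100a9, Fpr2, Mpo, Elane, Csf3r, Mmp9, Trem1, Zc3h12a, Il17ra, Il17rc, Traf3ip2, Myd88, Rela, Relb, Cebpd, Ackr4 and the marker genes Ltf, Il1r2, Reg3g, Col1a1, Hc and Lgi3) were picked with their values in view. The 3 genes closest in pattern were taken for members spanning at least 1 log2 unit, which only Cxcl1 did. Predicted or clone-like symbols, Y-linked genes and Xist were left out of that ranking. Promoter sequences are RefSeq's for GRCm38.p6.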

Additional observations from a re-analysis of the deposited data

Results flagged for a closer look

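The bleomycin difference went opposite ways in the genotypes for 3 of the 5 genes. For Cxcl1 it was -0.21 in TLR4-/- and 0.79 in wild type, so the responses differed by -1.00. For Cxcr2 it was -0.22 in TLR4-/- and 0.16 in wild type, a difference of -0.39 in a dim signal. For Cxcl15 it was -0.08 in TLR4-/- and 0.01 in wild type, a difference of -0.10, with each value within the spread between arrays of 0.23. The signs of Cxcl15 were not opposite with its brightest probe set, at -0.0015 in TLR4-/- and -0.0049 in wild type, or with the difference centred, at -0.10 and -0.05. With 1 array per group none of these differences between the genotypes was tested.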

How the results depend on the processing

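No paired analysis was possible because each group had 1 array. The differences of Cxcl1 and Cxcl2 between single arrays moved by less than the spread between arrays with median centring, quantile normalization or centring of the difference, the last chosen after seeing the data, and for Cxcl1 also with its brightest probe set. The filter cannot move them, nor can the choice of probe set for Cxcl2, which has 1. After quantile normalization the bleomycin difference of Cxcl1 in TLR4-/- (-0.24) and the untreated genotype difference of Cxcl2 (-0.25) were just past the spread. At day 4 they ranged from -1.04 to -0.98 for Cxcl1 and from -0.69 to -0.66 for Cxcl2. No limma call was made for a member under any alternative. The fits without an array held treatment alone or genotype alone, so there the model changed as well. Leaving out an array gave bleomycin effects of -0.22 to 0.80 for Cxcl1 and 0.01 to 0.68 for Cxcl2, and genotype effects of -0.91 to -0.12 and -0.71 to -0.11. Counts over all genes moved more. Genes at least 2-fold lower after bleomycin in wild type numbered 28, but 81 without the filter, 47 after quantile normalization and 43 after centring the difference. In TLR4-/- 223 genes were higher (342 without the filter) and 81 lower (127 with the probe set of highest mean, 141 without the filter). For genotype in untreated arrays 71 were higher (122 by the brightest probe set, 133 without the filter, 43 centred) and 31 lower (84 without the filter). At day 4, 4 were higher (11 by the brightest probe set, 18 without the filter) and 5 lower (9 without the filter). The responses differed by 2-fold upwards in 61 genes (158 without the filter) and downwards in 77 (138 with the probe set of highest mean, 147 without the filter, 49 centred). limma's 653 genes that rose and 230 that fell became 378 and 106 with centred arrays, 319 and 48 without the filter, and 279 and 62 with the probe set of highest mean. Leaving out an array gave 0 to 802 that rose and 0 to 227 that fell. The cause of these shifts was not tested.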
